A study of Homo sapiens with 6 samples.

Results

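Genes for the proteins of the cytosolic ribosome were followed across clones of MiaPaCa2, a human pancreatic ductal adenocarcinoma cell line, with and without a deletion of ZEB1, a transcription factor that holds down epithelial genes. Members were taken by symbol (RPL or RPS with a number and, where present, the suffix A, X, L or L1, together with RPLP0, RPLP1, RPLP2 and RPSA), which gave 84 of the 26334 symbols in the count table. Of these, 46 encode proteins of the large subunit, 31 encode proteins of the small subunit, and 7 are like-paralogs, second genes whose symbols end in L or L1 (RPL3L, RPL7L1, RPL10L, RPL22L1, RPL26L1, RPL39L and RPS27L). The large and small subunit genes are called canonical below.

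The groups were 3 wild-type clones (WT) and 3 ZEB1-deleted CRISPR-Cas9 clones (ZEB1-KO), with 1 library per clone. Per the labels, both groups went through electroporation with a plasmid for Cas9 and GFP and a sort for GFP, the plasmid of the ZEB1-KO group also carried a ZEB1 guide RNA, and the medium held 10% serum. Each library was made from 2000 lysed cells by SMART-Seq2, in which reverse transcription is primed at the poly(A) tail. The series design counts each replicate as its own clone, so that p-values measure the spread between clones, and in bulk libraries fewer expressing cells and less RNA per cell cannot be told apart.

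Ribosomal protein mRNAs are among the most abundant in growing cells, because each ribosome needs about equal numbers of nearly all of its proteins. Most of these mRNAs start with a terminal oligopyrimidine (TOP) tract, a run of C and T letters through which the growth kinase mTOR and the RNA-binding protein LARP1 control their translation together. A few members have a second gene with its own regulation, and some have roles outside the ribosome, such as RPL5 and RPL11, which bind the p53 regulator MDM2 when ribosome assembly fails.

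Libraries held between 18909305 counts (ZEB1-KO replicate 1) and 42876693 counts (WT replicate 1), with 16552 to 17530 symbols detected. ZEB1 itself, in replicates 1, 2 and 3, had 1486, 1011 and 830 counts for WT and 67, 140 and 369 counts for ZEB1-KO. VIM, KRT8 and KRT18, which this mesenchymal-type line expresses, had at least 720 CPM (counts scaled by the TMM-adjusted library size, a robust scaling that assumes most genes do not differ) in every library, while CDH1 and EPCAM had at most 4 counts. VIM lay lower, and KRT8 and KRT18 higher, in every ZEB1-KO clone than in any WT clone. Their log2 fold changes were -1.11, 1.25 and 0.52 (adjusted p = 0.105, 0.0635 and 0.297, edgeR). Of 13 markers of blood, endothelial and fibroblast cells only 3 were high enough to be tested, and of 9 acinar and islet markers none were.

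The start sites of the genes on which the results turn are shown first, because most canonical genes share the TOP tract and most of the like-paralogs listed do not. Each sequence runs 5′ to 3′ on the gene's own strand, from 10 bases before the annotated start through the first 20 bases of the first exon. Sequences are from RefSeq (GRCh38.p14), and capitals mark a run of at least 5 C or T letters that opens with C within 5 bases of the annotated start.
RPS27 (chr1:153990752-153990781, plus strand): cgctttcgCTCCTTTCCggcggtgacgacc
RPS27L (chr15:63157458-63157487, minus strand): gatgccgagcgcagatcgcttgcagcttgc
RPL22 (chr1:6199576-6199605, minus strand): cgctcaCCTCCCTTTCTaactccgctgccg
RPL22L1 (chr3:170870176-170870205, minus strand): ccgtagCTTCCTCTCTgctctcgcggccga
RPL26 (chr17:8383174-8383203, minus strand): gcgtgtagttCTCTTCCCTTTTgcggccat
RPL26L1 (chr5:172958719-172958748, plus strand, 1 of its listed starts): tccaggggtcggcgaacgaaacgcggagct
RPL7L1 (chr6:42879606-42879635, plus strand): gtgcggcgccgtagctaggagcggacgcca
RPS14 (chr5:150449720-150449749, minus strand): ccctcccaCTCTCTCTTTCCggtgtggagt
RPS25 (chr11:119018324-119018353, minus strand): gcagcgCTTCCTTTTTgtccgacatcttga
RPL24 (chr3:101686699-101686728, minus strand): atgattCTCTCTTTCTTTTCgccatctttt
RPL28 (chr19:55385922-55385951, plus strand): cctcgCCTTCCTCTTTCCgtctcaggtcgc
RPS12 (chr6:132814559-132814588, plus strand): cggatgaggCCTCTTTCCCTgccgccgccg

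Such a run was present at 53 of the 62 canonical genes that the RefSeq promoter table lists (85.5%), against 25.2% of all 27303 genes listed there. When letters were read only from the annotated start onward, with C at the start and at least 5 C or T letters in a row, 46 of the 62 canonical genes held such a stretch (74.2%), which may continue a run that opens upstream, against 5.14% of all genes. Of the 5 like-paralogs listed, RPL22L1 alone held the run. RPS27L, RPL26L1 and RPL7L1 thus lack these letters at the annotated start while their parents RPS27 and RPL26 carry them, and the annotated start need not be the one used in MiaPaCa2. The share of genes with a run was alike in the large subunit (33 of 38) and the small subunit (20 of 24).

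Counts from ribosomal protein genes made up a similar part of the libraries in both groups. In replicates 1, 2 and 3 they took 11.9%, 10.1% and 9.73% of all counts for WT and 12.5%, 9.49% and 9.16% for ZEB1-KO. The means were 10.6% ± 1.15 (WT) and 10.4% ± 1.83 (ZEB1-KO; SD, n = 3 each), a difference smaller than the spread within either group. ZEB1-KO replicate 1, the library with the fewest counts, had the highest share, and without it the ZEB1-KO mean lay 1.25 percentage points below WT. The large subunit gave 5.80% to 7.05% of counts in WT and 5.55% to 7.28% in ZEB1-KO clones, and the small subunit 3.85% to 4.77% and 3.55% to 5.15%. Counts of the large subunit exceeded those of the small subunit by a factor of 1.47 ± 0.0413 in WT and 1.48 ± 0.0760 in ZEB1-KO clones (SD, n = 3 each), so that the balance of subunits did not separate the groups.

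Levels per transcript length were compared with the deposited TPM values (transcript levels scaled for gene length and library), which cover 79 members. Their mean over the 6 libraries ran from 16.8 TPM (RPL36A) to 9937 TPM (RPS18), with a median of 2268 TPM, and 60 members exceeded 1000 TPM. The highest were RPS18 and RPS27 of the small subunit (9937 and 8443 TPM), RPS14 (6407 TPM), RPL41, which encodes the smallest ribosomal protein (6249 TPM), and RPL7 (6143 TPM). RPS18 stood at 8473, 9437 and 9326 TPM in WT replicates 1, 2 and 3 and at 15227, 10105 and 7054 TPM in ZEB1-KO replicates 1, 2 and 3. Its groups overlapped, with both the highest and the lowest value in ZEB1-KO clones. Median levels were 2564 TPM for the large subunit and 2002 TPM for the small subunit, against 173.8 TPM for the 4 like-paralogs listed. The order of members was nearly the same in every clone, with Spearman's rho between 0.907 and 0.983 over the 15 pairs of libraries and 79 members, a description across genes that share each library.

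**Figure D1:**
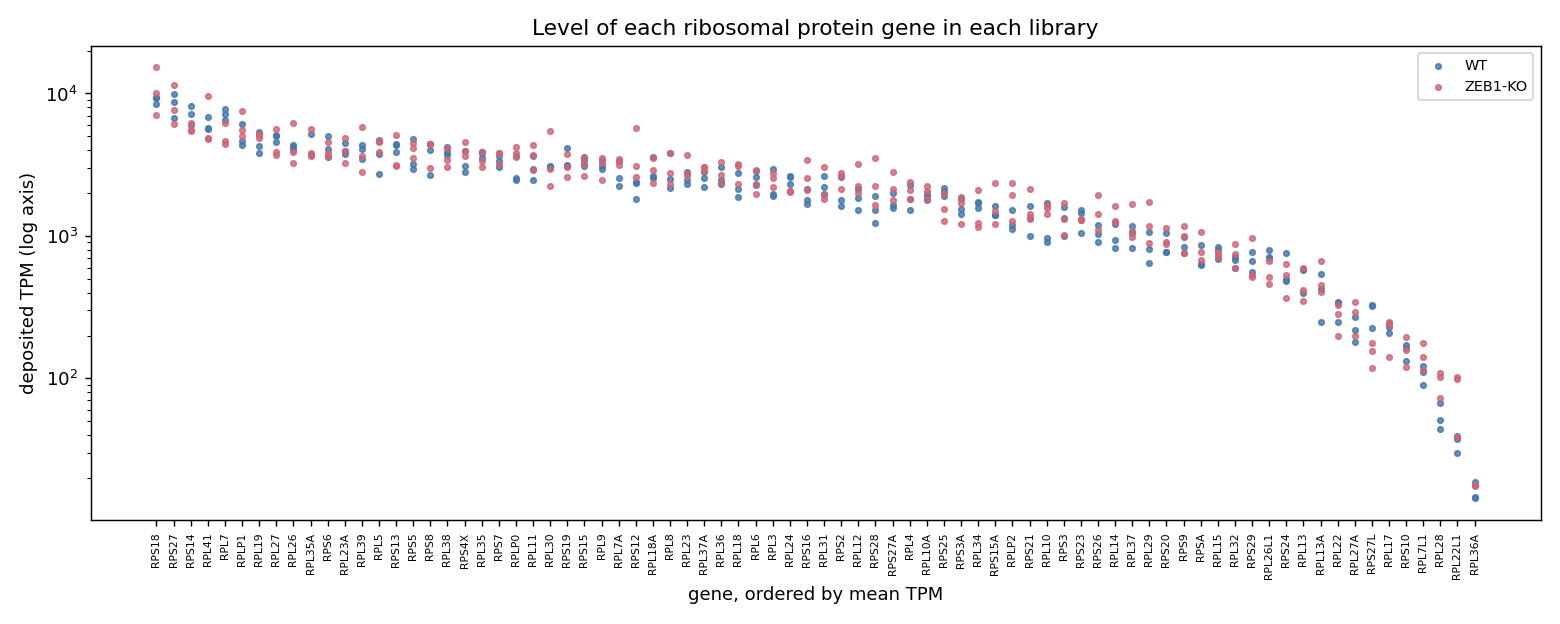
Deposited TPM (log axis) of the ribosomal protein genes with TPM values (1 is not shown), ordered by mean level, with 1 point per library and the groups in 2 colours. RPS18 at 9937 TPM and RPS27 at 8443 TPM lead, RPL22L1 (57.8 TPM) and RPL36A (16.8 TPM) end the order, and the colours overlap for most genes.

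Low levels within the canonical set need care in reading. RPL36A, RPS10 and RPL17 (16.8, 156 and 218 TPM) share exons with read-through symbols that are listed apart (RPL36A-HNRNPH2, RPS10-NUDT3 and RPL17-C18orf32) and that had 0 counts in every library, so their counts may be uncertain. RPL36AL, a paralog of RPL36A by its symbol, lies outside the symbol rule and is not counted among the members. It had 640, 1016 and 888 CPM in WT replicates 1, 2 and 3, where RPL36A had 28.1 to 34.96 CPM over all libraries. In ZEB1-KO replicates 1, 2 and 3 RPL36AL had 439, 350 and 483 CPM, with no overlap (adjusted p = 0.113, edgeR). RPL28 (74.4 TPM), RPL13 (488 TPM) and RPL27A (249.9 TPM) had 5.87, 5.63 and 5.55 times as many counts per TPM as the median member, which by the construction of TPM corresponds to a greater gene length in that calculation. RPL21 had 0 to 2 counts in every library, although its protein is part of every ribosome. RPL21 has many processed pseudogenes, and whether reads were lost to these copies was not tested. RPL3L, RPL10L and RPL39L, which are known from muscle, testis and other restricted tissues, had at most 4, 7 and 20 counts in any library. In all, 5 members were too low to be tested, leaving 79 tested members.

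The comparison of ZEB1-KO with WT clones asked how the level of each gene depended on ZEB1. No ribosomal protein gene passed the test. By edgeR's quasi-likelihood test 0 of 79 tested members had an adjusted p below 0.05 in either direction, where 0.176% of all 13659 genes tested did (0.117% higher and 0.0586% lower). ZEB1, the deleted gene, did not pass that test either (log2 fold change -2.43, adjusted p = 0.0930, edgeR). A count of 0 thus does not show that levels were equal. At an unadjusted p below 0.05, 6 members were lower and 2 were higher in ZEB1-KO clones (7.59% and 2.53% of the members), against 8.04% and 9.64% of all genes. Of the 1853 genes with a mean of at least 100 CPM, 324 were lower and 153 higher at that level. DESeq2, edgeR's likelihood ratio test and its exact test each called 1 member, RPS27L, lower and none higher. Over all genes DESeq2 called 2.78% lower and 4.34% higher, and the likelihood ratio test 1.76% and 2.75%. In the authors' deposited table, 1 of 79 members was lower and none higher, while 1.92% of its 11013 genes were lower and 2.82% higher.

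Canonical genes lay slightly lower in ZEB1-KO clones as a set under this scaling. Of 75 tested, 53 lay below 0 on the log2 scale, the median being -0.12 (large subunit -0.12, small subunit -0.125), against 50.6% negative and a median of -0.0082 over all genes tested. Among the 1853 genes with a mean of at least 100 CPM, 61.6% were negative with a median of -0.15, so other abundant genes lay as low. The sign of the median depended on the scaling, since it was 0.0205 with library size alone (36 of 75 negative) and 0.117 on the log2(TPM + 1) scale (27 of 75 negative). Both settings moved all genes as well, whose median became 0.138 and 0.204, and relative to all genes the canonical median stood at -0.112 in the TMM fit, -0.118 with library size alone and -0.087 with TPM. That distance from all genes rested on single clones, being -0.249 when ZEB1-KO replicate 1 was left out and -0.008 when ZEB1-KO replicate 2 was. Canonical log2 fold changes ran from -0.76 (RPL7) to 0.54 (RPS12), and the middle of them, from the lower to the upper quartile, spanned -0.302 to 0.0359.

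**Figure D2:**
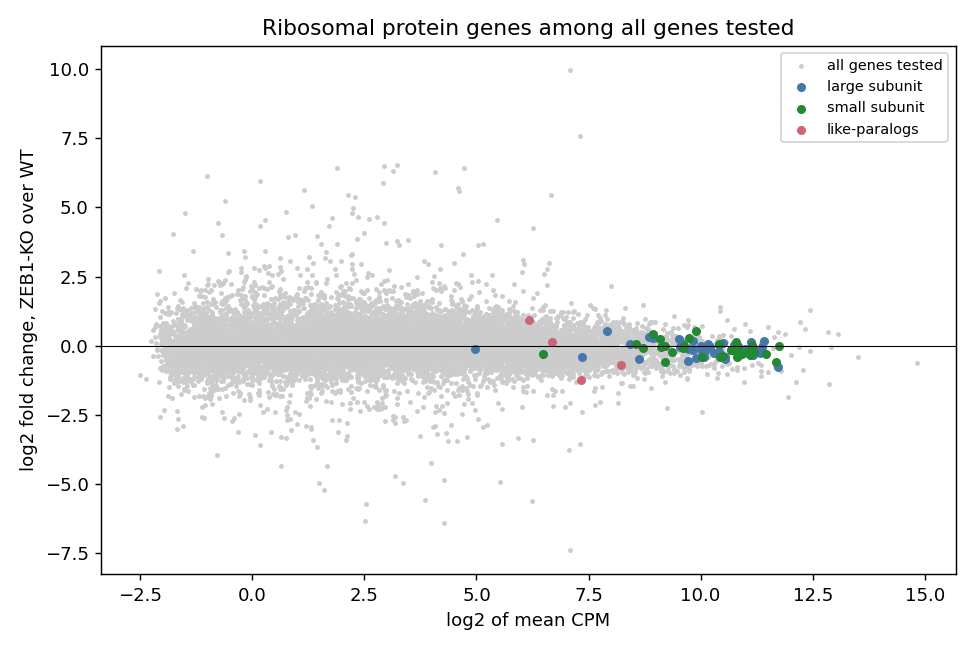
Log2 fold change of ZEB1-KO over WT against the log2 of mean CPM for 13659 genes tested (grey), with large subunit, small subunit and like-paralog genes in colour. The canonical genes gather at the right, among the most abundant genes, between -0.76 and 0.54, while RPS27L (-1.24) and RPL22L1 (0.91) lie outside that band at lower levels.

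**Figure D3:**
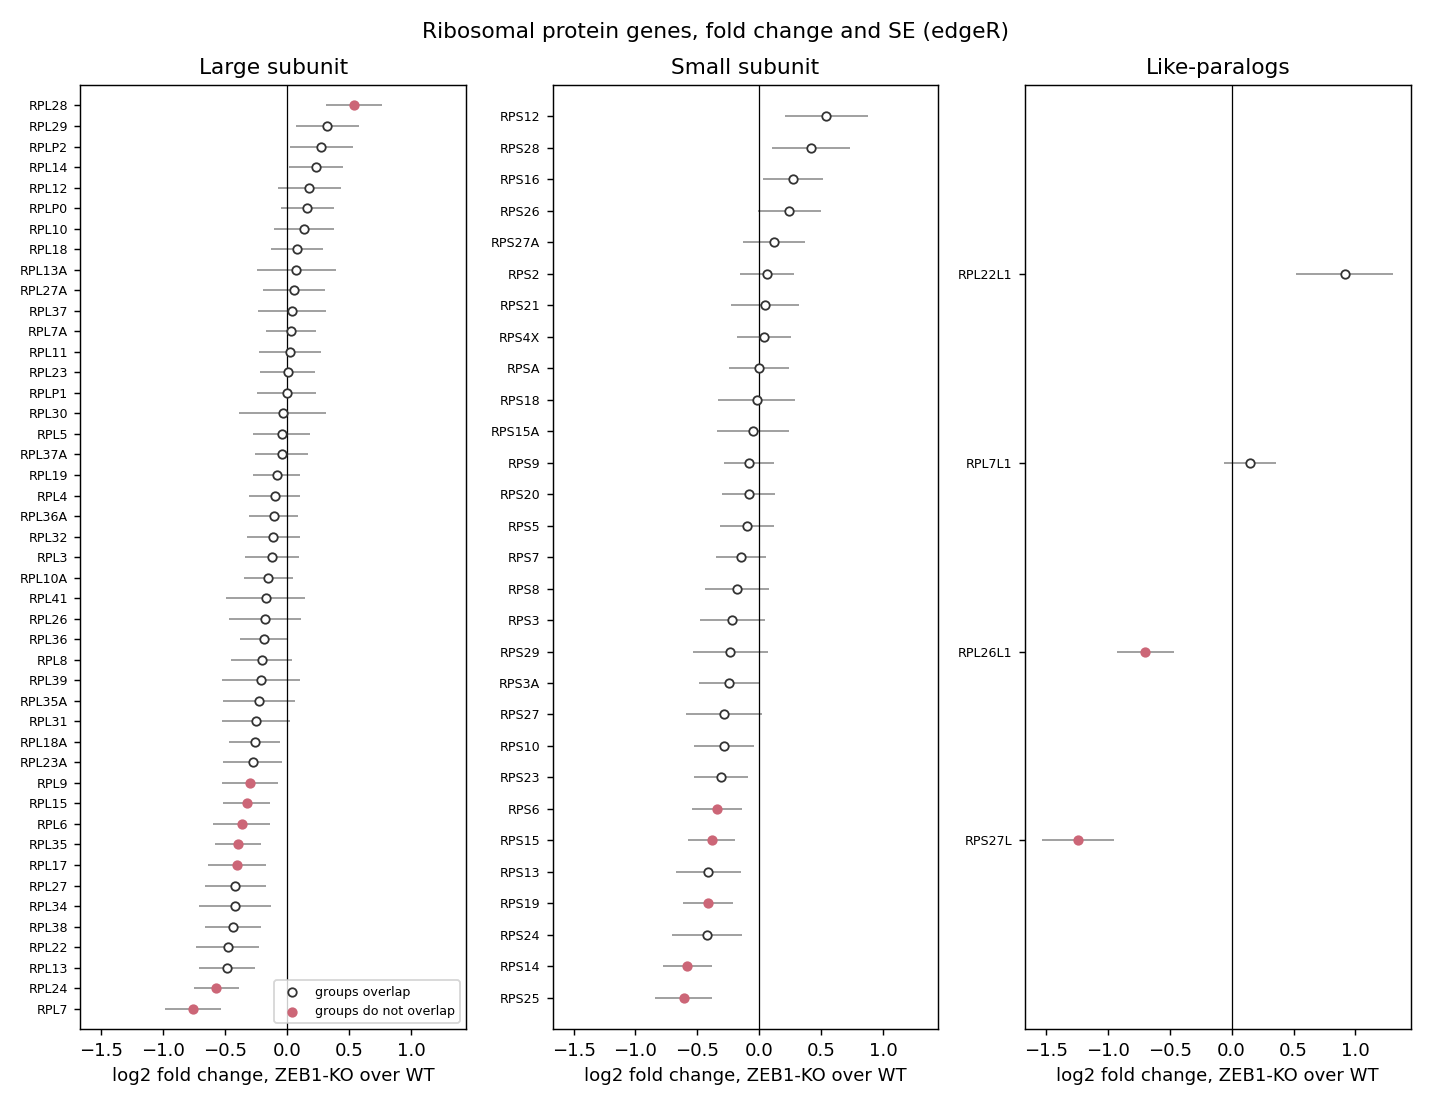
Log2 fold change of ZEB1-KO over WT for the tested ribosomal protein genes (1 is not shown), with bars of 1 SE from edgeR's quasi-likelihood fit, in 3 panels for the large subunit, the small subunit and the like-paralogs. Filled points mark the 15 genes whose 3 ZEB1-KO values all lie on one side of the 3 WT values, and 14 of these lie below 0.

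For 14 tested members every ZEB1-KO value lay below every WT value (17.7% of 79, against 11.7% of all genes), and for 1 member, RPL28, every ZEB1-KO value lay above (11.9% of all genes). Among genes of at least 100 CPM these shares were 20.3% and 10.6%, so the count of lower members was near that of abundant genes in general. RPL7, a large subunit protein, had 4226, 4219 and 4309 CPM in WT replicates 1, 2 and 3 and 2395, 1997 and 3157 CPM in ZEB1-KO replicates 1, 2 and 3. The WT clones lay close together, and each ZEB1-KO clone lay well below them. The difference was -0.76 on the log2 scale (SE 0.23, adjusted p = 0.149, edgeR), or 1.69-fold.

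RPS14, a small subunit protein whose reduced dose is linked to the anaemia of the 5q- syndrome, measured 4129, 4318 and 3375 CPM in the WT clones and 2675, 2645 and 2580 CPM in the ZEB1-KO clones. Here the ZEB1-KO clones were the tight group, and WT replicate 3 lay closest to them. It differed by -0.58 (log2, SE 0.20, adjusted p = 0.184). RPS25, a small subunit protein needed for some kinds of internal initiation, measured 693, 720 and 723 CPM against 608, 415 and 377 CPM in the same order, a log2 difference of -0.61 (SE 0.23, adjusted p = 0.219). RPL24, a large subunit protein that joins late in assembly, measured 938, 1007 and 1065 CPM against 711, 619 and 697 CPM, a log2 difference of -0.57 (SE 0.18, adjusted p = 0.171). The other canonical genes with no overlap were RPL6, RPL9, RPL15, RPL17, RPL35, RPS6, RPS15 and RPS19, with log2 fold changes between -0.41 and -0.30. RPS6, the small subunit protein phosphorylated downstream of mTOR, had 1723 to 2278 CPM in ZEB1-KO clones, just under the lowest WT value of 2291 CPM.

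RPL28, a large subunit protein found only in eukaryotes, was the only member above WT in every ZEB1-KO library. It had 225, 205 and 163 CPM in WT replicates 1, 2 and 3 and 325, 308 and 228 CPM in ZEB1-KO replicates 1, 2 and 3. ZEB1-KO replicate 3 exceeded WT replicate 1 by a small margin, and the log2 difference was 0.54 (SE 0.22, adjusted p = 0.261). RPS12, a small subunit protein, differed by the same 0.54 (SE 0.34, adjusted p = 0.433). Its values were 765, 926 and 653 CPM in WT and 1772, 847 and 790 CPM in ZEB1-KO clones, so that the difference rested on ZEB1-KO replicate 1. RPS28 (378 to 834 CPM in ZEB1-KO, 338 to 469 CPM in WT clones) and RPL29 (375 to 656 CPM and 346 to 476 CPM) also overlapped, with log2 fold changes of 0.42 and 0.32.

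Members with roles outside the ribosome showed no difference beyond the spread of the clones. RPL5 and RPL11, which bind MDM2, had log2 fold changes of -0.04 (SE 0.23) and 0.02 (SE 0.25). RPS27A, which is made as a fusion with ubiquitin, had 0.12, and RPL13A, a silencer of inflammatory mRNAs when released from the ribosome, 0.08. RPSA, the laminin receptor precursor, stood at -0.003, RPS3, which also acts in DNA repair, at -0.22, RPS4X at 0.04, RPL10 at 0.13 and RPL38, linked to translation of Hox mRNAs, at -0.44. Their adjusted p-values (edgeR) lay between 0.342 (RPL38) and 0.996 (RPSA), which does not show that the levels were equal.

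Ratios within the family are free of the library scaling, so each member was also expressed relative to the median canonical gene of its library. On this log2 scale 13 canonical genes lay higher in all 3 ZEB1-KO clones than in any WT clone (17.3% of 75, against 14.4% of all genes) and 2, RPS14 and RPS25, lay lower (2.67%, against 3.10% of all genes). These shares were close to those of all genes. The 13 included RPLP0, RPLP1 and RPLP2, which together form the stalk that recruits elongation factors, with differences of 0.38, 0.19 and 0.45 between the group means. RPLP0 in replicates 1, 2 and 3 stood 0.99, 0.90 and 0.85 above the family median for WT and 1.03, 1.29 and 1.55 above it for ZEB1-KO. RPSA differed by 0.18 with a spread of 0.02 in each group (SD, n = 3), and RPL28, RPS12 and RPS28 had the largest differences, of 0.75, 0.67 and 0.56. RPL12, RPL14, RPS16, RPS26 and RPS27A were also among them, and no separate test was made of these ratios.

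ZEB1-KO clones differed among themselves. Relative to each gene's mean over the 6 libraries, the median canonical gene of replicates 1, 2 and 3 stood on the log2 scale at 0.16, 0.11 and -0.03 for WT and at 0.22, -0.19 and -0.21 for ZEB1-KO. ZEB1-KO replicate 1 thus lay above all WT clones and the other ZEB1-KO clones below them. Of 75 canonical genes, 34 had their highest value in ZEB1-KO replicate 1, whereas 31 had their lowest in ZEB1-KO replicate 2 and 25 in ZEB1-KO replicate 3. Between ZEB1-KO replicates 1 and 2 the median absolute log2 difference was 0.518 over canonical genes, more than between any WT and ZEB1-KO clone (0.237 to 0.398), while it was 0.229 between ZEB1-KO replicates 2 and 3 and 0.139 to 0.225 among WT clones. Over genes of at least 100 CPM the same 2 ZEB1-KO clones differed by 0.326, within the 0.258 to 0.546 of all pairs.

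**Figure D4:**
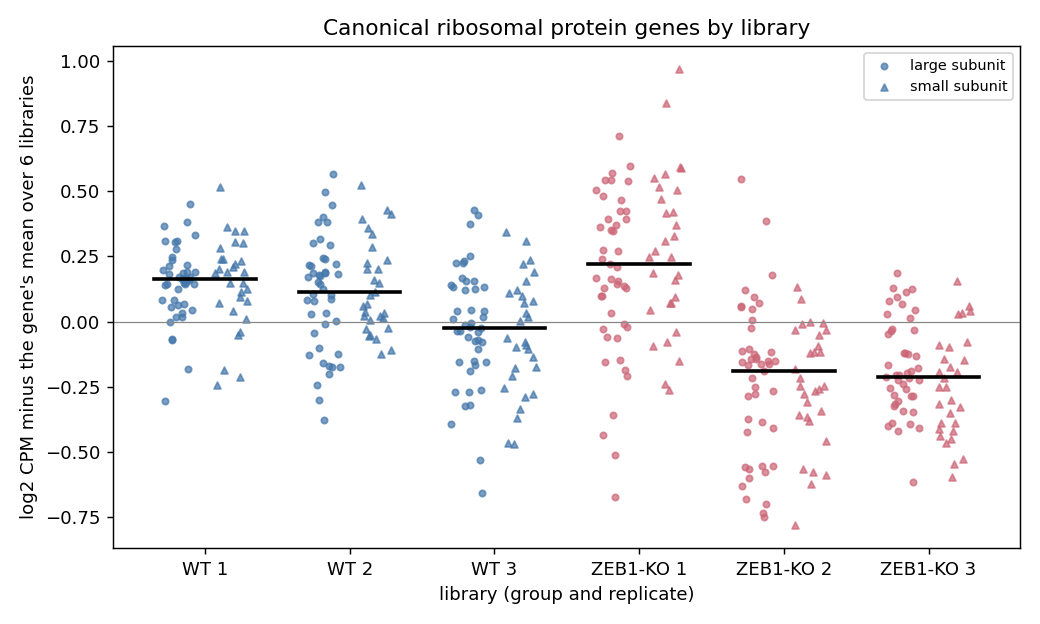
Log2 CPM of 75 canonical ribosomal protein genes minus each gene's mean over the 6 libraries, with circles for the large subunit, triangles for the small subunit and a bar at the median of each library. The bar is at 0.22 in ZEB1-KO replicate 1 and at -0.19 and -0.21 in ZEB1-KO replicates 2 and 3, while WT clones lie between -0.03 and 0.16.

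The spread was larger among ZEB1-KO than among WT clones for 60 of the 75 canonical genes, where this held for 56.5% of all genes tested and 55.8% of genes of at least 100 CPM. Canonical genes moved together within a library, so these are not 75 separate observations of spread. RPL30, a large subunit protein, had 1083, 1294 and 1234 CPM in WT and 1859, 675 and 991 CPM in ZEB1-KO replicates 1, 2 and 3. RPL41 had 2597, 2588 and 2347 CPM in WT and 3451, 1506 and 1720 CPM in ZEB1-KO clones, and RPL39, which lines the exit tunnel, 1174, 1323 and 1043 CPM and 1505, 638 and 920 CPM. In each of the 3 genes ZEB1-KO replicate 1 was the highest and ZEB1-KO replicate 2 the lowest of all libraries. Without ZEB1-KO replicate 1, 66 of the 75 lay below 0 (median log2 difference -0.264), and 38 lay below WT in both remaining clones (50.7%, against 16.4% of all genes and 27.1% of those of at least 100 CPM) and 1 lay above (15.8% of all genes). In that fit 17 members were lower at an unadjusted p below 0.05 and none were higher (6.68% and 8.19% of all genes), and still none passed the adjusted threshold. Because canonical genes stood highest in ZEB1-KO replicate 1, leaving it out raises the number of them below WT by selection on the same values. The shares set against all genes are therefore a description and not a test. Depth moves with ZEB1-KO replicate 1, which had the fewest counts, and its part in the result was not tested.

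The like-paralogs covered the widest range of differences. RPS27L, whose protein is close to that of RPS27 and whose gene is a known p53 target, had 158, 269 and 256 CPM in WT replicates 1, 2 and 3 and 104, 69.4 and 116 CPM in ZEB1-KO replicates 1, 2 and 3. All ZEB1-KO clones lay below all WT clones. The means were 227 CPM ± 60.5 (WT) and 96.3 CPM ± 24.1 (ZEB1-KO; SD, n = 3 each), a 2.36-fold difference. On the log2 scale this was -1.24 (SE 0.29), the largest among the tested members, and edgeR's quasi-likelihood test gave it an adjusted p of 0.107. DESeq2 gave an adjusted p of 0.00608 and edgeR's likelihood ratio test 0.0122, and in the authors' deposited table RPS27L stood at -1.25 (adjusted p = 0.0107). Over 19 alternatives the log2 fold change ran from -1.43 to -0.96 and the adjusted p from 0.00608 to 0.300. RPS27, the parent, had a log2 fold change of -0.29 (SE 0.30), and the TPM of RPS27L was 2.57%, 3.24% and 4.88% of that of RPS27 in WT and 1.35%, 1.55% and 2.90% in ZEB1-KO clones, ranges that overlapped.

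RPL22L1 is the second gene of RPL22, which is known to hold down RPL22L1. It had 47.9, 59.8 and 41.7 CPM in WT replicates 1, 2 and 3 and 119, 41.3 and 121 CPM in ZEB1-KO replicates 1, 2 and 3. ZEB1-KO replicates 1 and 3 stood well above WT, but ZEB1-KO replicate 2 was the lowest of all libraries. The log2 difference was 0.91 (SE 0.39, adjusted p = 0.274). RPL22 had 464, 540 and 373 CPM in WT and 417, 321 and 249 CPM in ZEB1-KO clones, which overlapped (log2 fold change -0.48, SE 0.25, adjusted p = 0.352). The TPM of RPL22L1 was 10.98%, 11.8% and 11.9% of that of RPL22 in WT clones, a narrow range, and 30.4%, 13.7% and 51.5% in ZEB1-KO clones. The ratio was thus higher in all ZEB1-KO clones, though only by a small margin in ZEB1-KO replicate 2.

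RPL26L1 had 319, 390 and 404 CPM in WT and 224, 179 and 285 CPM in ZEB1-KO replicates 1, 2 and 3, with no overlap. It differed by -0.70 on the log2 scale (SE 0.23, adjusted p = 0.180), and it is close enough in sequence to RPL26 that reads may have been split between them. RPL26 itself had 1646 to 1792 CPM in WT and 1023 to 2208 CPM in ZEB1-KO clones (log2 fold change -0.18, SE 0.29). The TPM of RPL26L1 was 15.91%, 17.85% and 18.99% of that of RPL26 in WT and 8.31%, 14.31% and 17.23% in ZEB1-KO clones. These ranges overlapped. RPL7L1, which acts in large subunit assembly, had 91.1, 88.9 and 111 CPM in WT and 111, 123 and 88.7 CPM in ZEB1-KO clones, a log2 difference of 0.15 (SE 0.21). Relative to RPL7 its TPM was 1.38% to 1.69% in WT and 1.84% to 4.05% in ZEB1-KO clones. That ratio did not overlap, though only by a small margin in ZEB1-KO replicate 3 (1.84%). RPL7 was lower in every ZEB1-KO clone, while RPL7L1 overlapped between the groups and was lowest in ZEB1-KO replicate 3.

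**Figure D5:**
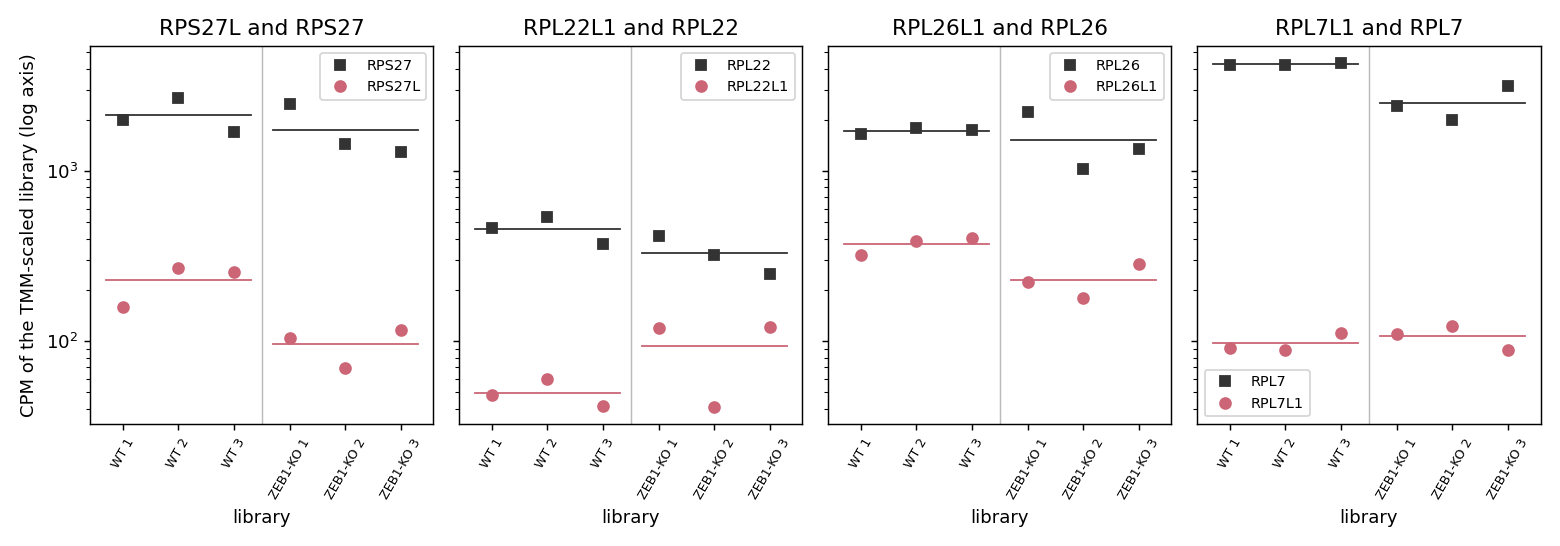
CPM (log axis) of 4 like-paralogs (circles) and their parents (squares) in each library, with a line at each group mean. RPS27L and RPL26L1 lie lower in all 3 ZEB1-KO clones, RPL22L1 lies at 119 and 121 CPM in ZEB1-KO replicates 1 and 3 but at 41.3 CPM in ZEB1-KO replicate 2, and RPL7 has a mean of 4251 CPM in a tight WT group and 2516 CPM in ZEB1-KO clones.

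Other genes of protein synthesis had few differences as well. Of 21 tested translation factors and related genes listed as TOP-type, 8 lay above and 13 below 0 on the log2 scale (median -0.07). Whether each of them carries the tract was not examined here. The threshold was passed by 0 of them, and 4 had an unadjusted p under 0.05, against 17.7% of all genes. DESeq2 called 1 of the 21 higher (4.34% of all genes). EEF2, the translocation factor, named after its values were seen, had 96.5, 75.2 and 68.1 CPM in the WT clones and 172, 264 and 117 CPM in the ZEB1-KO clones, with no overlap (log2 difference 1.20, adjusted p = 0.121, edgeR). EEF1A1, the most abundant of them and the factor that delivers aminoacyl-tRNA, averaged 7358 CPM ± 652 without and 9779 CPM ± 2032 with the deletion (SD, n = 3 each, adjusted p = 0.386, edgeR). FAU, which encodes a small subunit protein fused to a ubiquitin-like part and lies outside the symbol rule, differed by -0.41 on the log2 scale. Of 14 tested genes of growth signalling to these mRNAs, 9 were positive, with a median of 0.16 and 0 past the threshold. An unadjusted p under 0.05 was reached by 3, against 17.7% of all genes, and DESeq2 called 1 higher (4.34% of all genes). MLST8, a subunit of the mTOR complexes, also named after its values were seen, averaged 7.27 CPM ± 1.38 without and 18.9 CPM ± 1.42 with the deletion (SD, n = 3 each, adjusted p = 0.0842, edgeR). MTOR and LARP1 had log2 fold changes of 0.04 and 0.29. Of 11 tested genes of ribosome quality control and the link to p53, 7 were positive (median 0.16) and 0 passed the threshold. An unadjusted p under 0.05 was reached by 2 (17.7% of all genes), and DESeq2 called 1 higher (4.34% of all genes).

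Genes of ribosome biogenesis lay mostly above 0. The list held genes that process ribosomal RNA or assemble the subunits. It also held subunits of RNA polymerase I, the polymerase's factors RRN3 and UBTF, and the transcription factor MYC. Of 35 tested, 26 were positive, with a median log2 fold change of 0.27, against -0.0082 over all genes tested. The threshold was passed by 0 of them. At an unadjusted p below 0.05, 8 were higher and 1 lower (9.64% and 8.04% of all genes). The 8 included RRN3, POLR1B and POLR1D, which belong to RNA polymerase I transcription. DESeq2 called 2 of the 35 higher (4.34% of all genes). TSR1, a late factor of small subunit assembly, averaged 43.5 CPM ± 10.3 without and 82.2 CPM ± 3.25 with the deletion (SD, n = 3 each, adjusted p = 0.114, edgeR), and the nucleolar genes NOP56 and FBL had log2 fold changes of 0.25 and 0.27. For 8 of the 35 genes every ZEB1-KO value lay above every WT value, and for 1 every ZEB1-KO value lay below. Other differences rested largely on ZEB1-KO replicate 2. NOC2L had 22.1, 65.8 and 18.99 CPM in ZEB1-KO replicates 1, 2 and 3, against 8.75 to 23.1 CPM in WT clones. BOP1 had 32.5, 60.3 and 21.4 CPM, against 29.9 to 38.6 CPM. How far the median of the list depended on single clones was not tested. The difference between this list and the ribosomal proteins was not tested.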

How the data were processed

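Counts per gene symbol for 6 libraries were deposited by the authors as raw values. The authors also deposited TPM values for 11013 genes and an edgeR results table, whose columns are a log2 fold change, a likelihood ratio score and a p-value, per the file headers. TopHat2 2.1.0, HTSeq 0.6.1 and edgeR 3.2.2 with builds hg19 and GRCh37 are named in the submitters' processing notes; their settings are not given here. SMART-Seq2 records no strand and no molecular identifiers, so depth limits cover counting error only.

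Genes were filtered with filterByExpr (minimum count 10, total 15), leaving 13659, scaled by TMM and tested with edgeR 4.0.16 (glmQLFit, glmQLFTest, two-sided, R 4.3.3), with Benjamini-Hochberg adjustment over all genes and a threshold of 0.05. DESeq2 1.42.0 and limma 3.58.1 served as alternatives. The test was tried on simulated data. Sample titles gave the groups and the replicate numbers. Members and lists were chosen with earlier results of these data known. Named genes were ZEB1, the like-paralogs and parents, the 5 members highest and 5 lowest in TPM, the 5 largest log2 fold changes in each direction and 13 members of known further roles; up to 3 genes per list called by edgeR's quasi-likelihood test would have been added, but that test called none. Other names, the family-relative scale and the printed start sites were chosen after values were seen. The symbol rules of the mitochondrial ribosomal protein and pseudogene lists were narrowed after values were seen, leaving out 4 rows and 1 row that were pseudogenes, antisense or another gene. Some genes are not reported here by name.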

Additional observations from a re-analysis of the deposited data

How the results depend on the processing

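The count of members called was 0 in each direction under every scaling, filter and omitted library, with limma and with the replicate number as a block, except that 1 member, RPS27L, was called lower by DESeq2, by edgeR's exact test and by its likelihood ratio test. The sample titles give replicate numbers and no pairing of clones. Correlations of same-numbered clones' deviations were 0.00145, -0.0163 and 0.226, against -0.131 to 0.128 for different-numbered clones. These few values cannot settle whether clones were paired. With the replicate block the canonical median was -0.157. The number of all genes called was 24, against 134 without a filter, 80 with TPM, 566 with the exact test, 617 with the likelihood ratio test, 935 with DESeq2 and 5 to 25 when 1 library was left out.

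With the deposited TPM the median log2 fold change of canonical and of large subunit genes moved to 0.117 and that of small subunit genes to 0.129. Leaving out 1 library each gave medians of -0.264 to -0.0423 (canonical), -0.234 to -0.0469 (large) and -0.306 to -0.0407 (small), and a share difference of -1.25 to 0.452 percentage points.

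Several uncalled genes near 0 changed sign. With RLE, upper quartile, TMM without members, DESeq2 and library size alone RPSA was at 0.0024, 0.0086, 0.0053, 0.0045 and 0.141, and RPLP1 at 0.0033, 0.0090, 0.0057, 0.0054 and 0.143. Library size alone also gave RPL3 0.0205, RPS18 0.141, RPL36A 0.0343 and RPL5 0.103, and limma-voom gave RPL11 -0.0014. With log2(TPM + 1) and log2(TPM + 0.1) the values were 0.0236 and 0.0236 (RPL26), 0.160 and 0.160 (RPL3), 0.181 and 0.181 (RPS18), 1.49e-05 and 5.16e-06 (RPL41), 0.155 and 0.164 (RPL36A), 0.253 and 0.253 (RPL5), 0.2405 and 0.241 (RPSA), 0.247 and 0.247 (RPLP1), and 0.0282 and 0.0283 (RPS3). Leaving out 1 library each gave ranges of -0.160 to 0.208 (RPL11), -0.215 to 0.261 (RPL13A), -0.536 to 0.0435 (RPL26), -0.231 to 0.0450 (RPL3), -0.597 to 0.0373 (RPL39), -0.636 to 0.0409 (RPL41), -0.215 to 0.0877 (RPL5), -0.234 to 0.103 (RPLP1), -0.408 to 0.200 (RPS18), -0.124 to 0.300 (RPS27A), -0.0925 to 0.161 (RPS4X) and -0.254 to 0.116 (RPSA). The share was not recomputed without mitochondrially encoded genes, as 0 symbols of that kind were found.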

Other observations

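Proteins of the mitochondrial ribosome, a separate machine, are also encoded in the nucleus. Of 77 such genes tested, 56 lay below 0 on the log2 scale (median -0.31; 57 of 79 by the wider symbol rule), and for 23 every ZEB1-KO value lay below every WT value (29.9%, against 11.7% of all genes and 20.3% of genes of at least 100 CPM). By edgeR's quasi-likelihood test 0 passed the threshold. At an unadjusted p below 0.05, 20 were lower (26.0%) and 3 higher, against 8.04% and 9.64% of all genes. DESeq2 called 6 lower (7.79%, against 2.78% of all genes). Of the 1853 genes of at least 100 CPM, 324 were lower and 153 higher at that unadjusted level, and DESeq2 called 109 lower. Their share of all counts was 1.45% ± 0.0822 in WT and 1.28% ± 0.0278 in ZEB1-KO clones (SD, n = 3 each), with no overlap between 1.39% to 1.55% and 1.25% to 1.31%.

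A list of 30 other short and mostly abundant housekeeping genes consisted in the main of subunits of the respiratory chain and of ATP synthase. It does not stand for short abundant genes in general, and ATP5E in it had at most 70.5 CPM. The list had 29 negative log2 fold changes and a median of -0.67, against -0.12 for the canonical ribosomal protein genes. That difference was not tested. By edgeR's quasi-likelihood test 0 passed the threshold and 19 were lower at an unadjusted p below 0.05 (63.3%, against 8.04% of all genes). Of the 1853 genes of at least 100 CPM, 324 were lower at that level. In this list 16 genes lay lower in every ZEB1-KO clone (53.3%, against 11.7% of all genes and 20.3% of genes of at least 100 CPM). DESeq2 called 7 of the list lower (23.3%, against 2.78% of all genes), and it called 109 of the 1853 genes of at least 100 CPM lower. The share of counts of the housekeeping list was 2.24% ± 0.0902 in WT and 1.48% ± 0.247 in ZEB1-KO clones (SD, n = 3 each). Rows of ribosomal protein pseudogenes held only 0.00682% to 0.00927% of counts, and 19 of the 22 tested lay below 0 (median -0.30; 20 of 23 by the wider symbol rule), with 0 at an unadjusted p below 0.05.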
